A study of Homo sapiens with 16 samples.

Results

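The MYC, MAX and MXD network was followed in OCI-AML3 cells, an established human acute myeloid leukemia (AML) cell line, over 5 treatment groups. Its 10 members were the rows of the deposited table whose Ensembl identifiers carry the symbols MYC, MYCN, MYCL, MAX, MLX, MXD1, MXD3, MXD4, MXI1 and MNT, out of 62700 genes in all. The rule that picked them used symbols and no measured value. RNA was sequenced from 4 untreated libraries and from 3 libraries in each of 4 groups treated for 3 h. No vehicle or time was stated for the untreated libraries in the sources used here. In comparisons with them, effects of solvent or handling thus cannot be told apart from those of the drugs. The treated groups received ATRA or Am80, each at 0.1 µM, ATRA with GSK-LSD1 and MB3, or Am80 with GSK-LSD1 and MB3. ATRA (all-trans retinoic acid) is the natural ligand of the retinoic acid receptors, and Am80 (tamibarotene) is a synthetic retinoid that prefers the receptor RARA. GSK-LSD1 (0.1 µM) inhibits the lysine demethylase LSD1, and MB3 (100 µM) inhibits the histone acetyltransferase GCN5. Both inhibitors were always given together and always with a retinoid, so neither inhibitor can be told apart from the other or from its pairing with the retinoid. The cells are 1 cell line, and nothing states that the numbered repeats were separate cultures, so p-values measure only the spread between these libraries.

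MYC, MYCN and MYCL are basic helix-loop-helix transcription factors that bind DNA only as dimers with MAX and that raise the transcription of genes for ribosome production, nucleotide synthesis and cell growth. The MXD proteins (MXD1, MXD3, MXD4 and MXI1) and MNT also dimerize with MAX, occupy the same E-box sequence and recruit SIN3 and histone deacetylases, so that they act as antagonists of MYC. MLX is a second partner that pairs with some of the antagonists and with the nutrient-responsive factors MLXIP and MLXIPL. In the myeloid lineage, cells that mature classically lose MYC and gain MXD1. The question put to these libraries was whether activators and antagonists moved in opposite directions.

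The libraries held between 11963898 and 33789718 counted reads, a 2.82-fold range. Values are normalized counts, that is reads divided by a size factor for each library. All 11 listed myeloid markers were measured, and their summed level ran from 37715 to 41671 normalized counts in untreated libraries and from 33283 to 36461 in treated ones. Against untreated cells 4 of the 11 were called lower with either retinoid, where 12.1% (ATRA) and 13.4% (Am80) of all genes tested were. In the combinations 6 (ATRA) and 7 (Am80) were called lower, against 30.0% and 26.6% of all genes. Called higher were 1 marker with ATRA and 1 with ATRA and inhibitors, and none with Am80 or its combination. The part of these markers in the results was not tested. For other cell types, none of 5 T cell markers reached a mean of 10 normalized counts and CD3D and CD2 were at 0 in all libraries. ITGA2B was the 1 measured marker of 6 for erythroid cells and megakaryocytes, and COL1A2 the 1 of 6 for epithelium and fibroblasts. Mitochondrial genes took 6.02% to 7.53% of the reads without the inhibitors and 7.07% to 9.21% with them. Am80 replicate 2, the deepest library, stood farthest from the others of its group (a mean Euclidean distance of 26.0, against 19.7 and 20.2 for the other two, over the 1000 most variable genes). Untreated replicate 4 stood apart in its counts as well (a chi-square per degree of freedom of 14.3 to 20.7 against the other untreated libraries, which gave 3.37 to 4.90 among themselves). By mean distance it stood little apart (25.7, against 22.5 to 25.1 for the other untreated libraries). Where the call of a member changed without either library, the value without it is given.

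A gene was called higher or lower where limma, fitted to log2(normalized count + 1) of all 16 libraries, gave a Benjamini-Hochberg adjusted p under 0.05. Of the 10 members 9 reached the mean of 10 normalized counts needed for the test. Against untreated cells ATRA moved 7 of the 9 (2 higher, 5 lower), where 24.6% of all 14643 genes tested were called. Am80 moved 5 of the 9, all lower, against 28.8% of all genes. ATRA with inhibitors and Am80 with inhibitors each moved 8 of the 9 (2 higher, 6 lower), against backgrounds of 60.2% and 54.7%. Adding the inhibitors to ATRA moved 6 members (2 higher, 4 lower) and adding them to Am80 moved 5 (2 higher, 3 lower), against 49.3% and 39.5% of all genes. The comparisons of ATRA and Am80 with untreated cells share the same 4 untreated libraries.

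Read by direction, 12.5% of all genes were called higher and 12.1% lower with ATRA, and 15.4% and 13.4% with Am80. With ATRA and inhibitors the shares were 30.2% and 30.0%, and with Am80 and inhibitors 28.0% and 26.6%, against untreated cells. When the inhibitors were added, 24.9% rose and 24.4% fell beside ATRA, and 19.9% rose and 19.5% fell beside Am80. With a further limit of a 1.5-fold change, 2 members remained called with ATRA and 2 with Am80 (MYC and MXI1 in each), against 9.45% and 10.2% of all genes. In the combinations against untreated cells 5 members each passed that limit, against 29.1% and 26.0% of all genes, and 4 members each passed it on adding the inhibitors, against 19.5% and 15.7%.

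**Figure D1:**
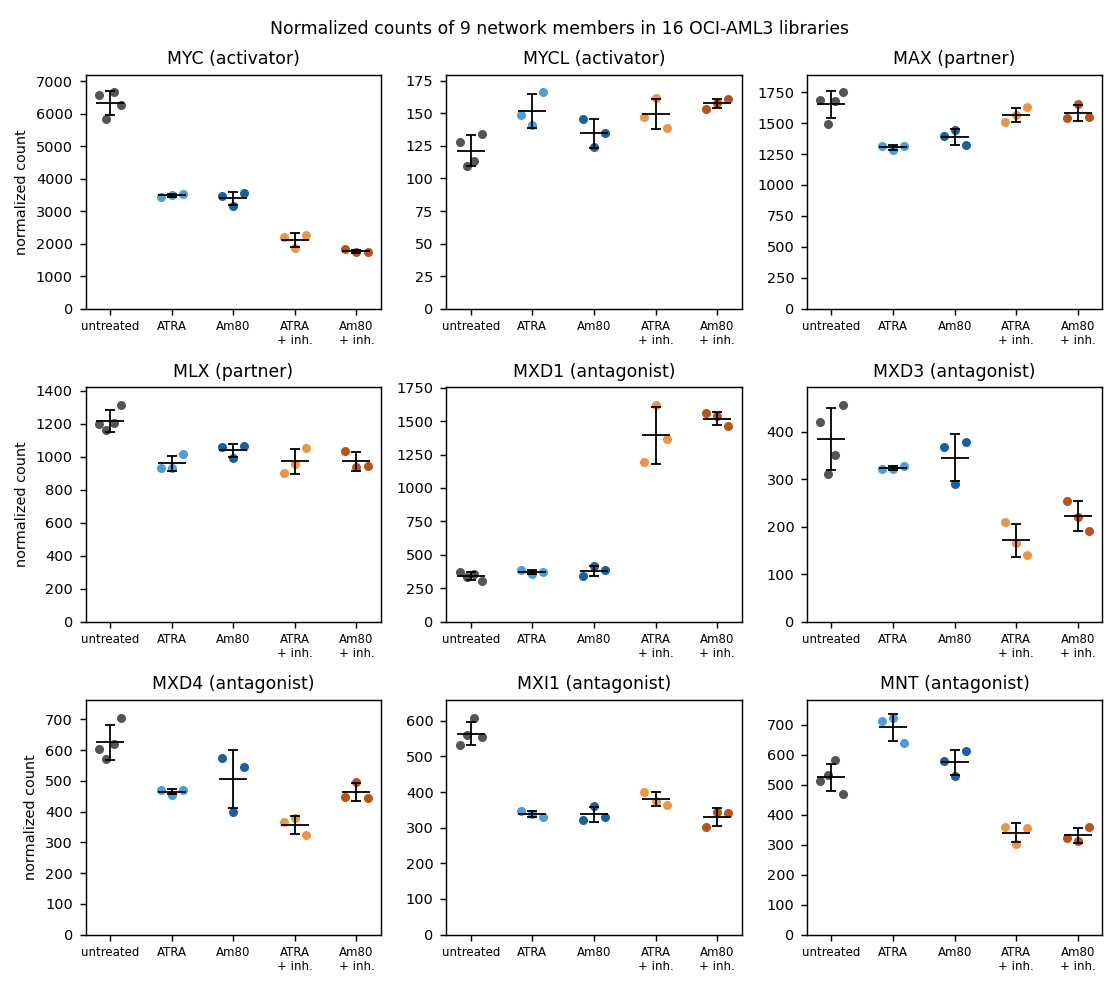
Normalized count (vertical axis, from 0) of each of the 9 tested members in each of the 16 libraries, by treatment group (inh., GSK-LSD1 with MB3). Points are libraries, and bars give the mean ± SD (n = 4 untreated, n = 3 in the other groups). MYC falls in 2 steps, from at least 5825 in untreated libraries to at most 2268 with the inhibitors, and MXD1 rises from at most 416 without the inhibitors to at least 1196 with them.

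MYC, the activator that gives the network its name, fell with both retinoids and fell further when the inhibitors were added. The 4 untreated libraries held 6563, 5825, 6667 and 6264 normalized counts of MYC. With ATRA the level was 3425, 3489 and 3535, and with Am80 it was 3458, 3163 and 3566. With ATRA and inhibitors MYC stood at 2215, 1868 and 2268, and with Am80 and inhibitors at 1826, 1744 and 1733. The untreated, retinoid and combination libraries thus formed 3 levels that did not overlap. The gene lies on chromosome 8 (GENCODE 29 on GRCh38, 127735434 to 127741434, plus strand).

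The fall of MYC was 1.81-fold with ATRA (log2 fold change -0.86, SE 0.07, limma adjusted p = 4.46e-09) and 1.86-fold with Am80 (-0.90, SE 0.07, adjusted p = 2.11e-09). By its fall MYC ranked 181st with ATRA and 207th with Am80 among the 14643 genes tested. Adding the inhibitors lowered MYC by a further 1.65-fold beside ATRA (log2 fold change -0.72, adjusted p = 2.27e-07) and 1.92-fold beside Am80 (-0.94, adjusted p = 6.57e-09). Against untreated cells the full treatments left MYC 3.0-fold lower with ATRA and 3.58-fold lower with Am80. In bulk RNA, fewer cells that express a gene and less RNA per cell cannot be told apart.

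MYCN, the paralog known from neuroblastoma, had no read in any library. Over all 296270735 counted reads, a count of 0 allows up to 3 reads, or 0.0101 per 1000000 reads. MYCL, the third activator, was measured at a low level and did not follow MYC. Untreated libraries held 128, 109.9, 113 and 134 normalized counts of MYCL, and ATRA libraries 148, 141 and 166. Am80 libraries held 146, 124 and 135, ATRA with inhibitors 147, 162 and 139, and Am80 with inhibitors 153, 158 and 161.

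The untreated libraries were below every ATRA library and every combination library in MYCL, and they overlapped those of Am80. MYCL was called higher with ATRA (log2 fold change 0.32, SE 0.11, limma adjusted p = 0.0323) and in the combinations with ATRA (0.30, adjusted p = 0.0209) and Am80 (0.38, adjusted p = 0.00527). With Am80 alone its log2 fold change was 0.15 (adjusted p = 0.322). The rise with ATRA lost its call under 9 of 28 alternative settings, among them the fit of the compared groups only (adjusted p = 0.0731) and the omission of untreated replicate 2 (0.0854) or 3 (0.0753) or of ATRA replicate 1 (0.0723) or 3 (0.158). Both combination rises lost the call when libraries were scaled to total reads, and the one beside ATRA also without untreated replicate 2 (0.0634) or 3 (0.0528) or ATRA with inhibitors replicate 2 (0.101). MYC and MYCL were thus called in opposite directions within the activators, at very unequal levels: per kilobase of exon, untreated cells held 2109 ± 126 normalized counts of MYC and 24.0 ± 2.29 of MYCL (SD, n = 4).

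MAX, the obligate partner, moved little, and its change with the inhibitors depended on the scaling. Untreated libraries held 1683, 1493, 1678 and 1752 normalized counts of MAX, ATRA libraries 1318, 1283 and 1312, and Am80 libraries 1397, 1448 and 1319. With inhibitors the level was 1512, 1564 and 1627 beside ATRA and 1538, 1655 and 1553 beside Am80. All 6 retinoid libraries lay below all 4 untreated ones, and the combinations overlapped the untreated range.

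MAX was lower with ATRA (log2 fold change -0.34, SE 0.06, limma adjusted p = 0.000402) and with Am80 (-0.25, SE 0.06, adjusted p = 0.00525). Adding the inhibitors raised it by 0.26 beside ATRA (adjusted p = 0.00319) and by 0.19 beside Am80 (adjusted p = 0.0328) on the log2 scale. Under quantile normalization these rises were 0.16 (adjusted p = 0.0608) and 0.09 (adjusted p = 0.287), and under scaling to total reads 0.12 (adjusted p = 0.13) and 0.06 (adjusted p = 0.439), so neither was then called. The rise beside Am80 was also lost without Am80 replicate 1 (adjusted p = 0.0696) or 3 (0.124) and without replicate 2 (0.135) or 3 (0.0557) of Am80 with inhibitors. Scaling to total reads also moved the median of all genes by -0.16 beside ATRA and -0.13 beside Am80, and relative to those medians MAX stood at 0.28 and 0.20.

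MLX, the alternative partner, was lower in all 4 treated groups. Untreated libraries held 1201, 1160.0, 1204 and 1316 normalized counts of MLX, and the 12 treated libraries lay between 905 and 1064. No treated library reached the lowest untreated one. The log2 fold changes against untreated cells were -0.34 beside ATRA alone (limma adjusted p = 0.000827), -0.23 beside Am80 alone (adjusted p = 0.0165) and -0.33 with either combination (adjusted p = 0.000439 and 0.00049). Without Am80 replicate 2 the change with Am80 was -0.20 (adjusted p = 0.0657). Adding the inhibitors gave log2 fold changes of 0.02 beside ATRA and -0.10 beside Am80, neither of them called. MLX shares 770 exon bases with PSMC3IP on the other strand, and the strand setting of the counting was not given in the sources used here, so reads of this pair cannot be told apart.

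MXD1, the antagonist that maturing myeloid cells gain, was the 1 of 5 antagonists that rose on adding the inhibitors. Without the inhibitors it stood at 374, 331, 357 and 307 normalized counts in untreated libraries, at 386, 355 and 369 with ATRA and at 341, 416 and 383 with Am80. With the inhibitors it stood at 1196, 1623 and 1364 beside ATRA and at 1559, 1538 and 1463 beside Am80. The 10 libraries without inhibitors overlapped among themselves, and all 6 libraries with inhibitors lay above them. Adding the inhibitors raised MXD1 3.73-fold beside ATRA (log2 fold change 1.90, SE 0.10, limma adjusted p = 2.19e-11) and 4.0-fold beside Am80 (2.0, SE 0.10, adjusted p = 9.28e-12). MXD1 ranked 39th and 46th among the 14643 genes by its rise in these comparisons. With the retinoids alone its log2 fold changes were 0.12 (95% confidence interval -0.08 to 0.32, adjusted p = 0.42) and 0.15 (-0.05 to 0.35, adjusted p = 0.259). MXD1 shares 237 exon bases with SNRNP27 on the same strand.

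The 7 measured genes of a list of 9 heat shock genes rose in the same libraries. All 7 were called higher beside each retinoid when the inhibitors were added (median log2 fold change 1.55 and 1.56). Of all genes tested, 24.9% were called higher beside ATRA and 19.9% beside Am80. Mitochondrial reads took 7.07% to 9.21% in the libraries with inhibitors, against 6.02% to 7.53% in the other libraries. The part of either in the change of MXD1 was not tested.

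Promoters of 3 antagonists are shown, that of MXD1, which rose with the inhibitors, and those of MNT and MXD4, the antagonists whose windows hold the network's own E-box. The windows run from 250 bases before to 50 bases after the RefSeq start of transcription, 5′ to 3′ along the gene's strand, and capitals mark the E-box CACGTG, which reads the same on both strands. MXD1 holds no CACGTG in this window, and MNT and MXD4 each hold it once, starting 193 and 238 bases before the start. MXD3 and MXI1, which fell in both combinations as MNT and MXD4 did, hold none.
MXD1 promoter (GRCh38.p14, chr2:69914859-69915158, plus strand): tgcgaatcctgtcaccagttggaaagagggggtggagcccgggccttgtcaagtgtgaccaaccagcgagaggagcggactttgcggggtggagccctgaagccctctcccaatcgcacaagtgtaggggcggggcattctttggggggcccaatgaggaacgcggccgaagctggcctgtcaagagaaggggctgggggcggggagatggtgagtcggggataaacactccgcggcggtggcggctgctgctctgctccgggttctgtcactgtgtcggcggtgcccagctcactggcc
MNT promoter (GRCh38.p14, chr17:2401011-2401310, minus strand): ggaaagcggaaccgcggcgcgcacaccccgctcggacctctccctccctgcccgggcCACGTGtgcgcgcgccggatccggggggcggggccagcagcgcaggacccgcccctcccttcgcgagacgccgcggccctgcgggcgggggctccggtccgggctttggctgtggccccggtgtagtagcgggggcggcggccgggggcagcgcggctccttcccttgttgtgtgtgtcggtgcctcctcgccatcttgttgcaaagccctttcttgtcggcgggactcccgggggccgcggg
MXD4 promoter (GRCh38.p14, chr4:2262060-2262359, minus strand): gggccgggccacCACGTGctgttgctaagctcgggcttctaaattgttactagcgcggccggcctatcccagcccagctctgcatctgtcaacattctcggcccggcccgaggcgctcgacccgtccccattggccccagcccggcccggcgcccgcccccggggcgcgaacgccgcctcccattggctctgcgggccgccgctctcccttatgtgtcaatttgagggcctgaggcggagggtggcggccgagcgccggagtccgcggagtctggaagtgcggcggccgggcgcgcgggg
In RefSeq, 2548 of 35116 windows of this length (7.26%) hold CACGTG. Among the members other than MYC, whose window was not used here, MLX, MNT and MXD4 hold it, and MAX, MYCL, MYCN, MXD1, MXD3 and MXI1 do not. A match of letters is a description and shows no binding. The windows are given on GRCh38.p14, and the build of the counting was not given in the sources used here.

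MXD3, an antagonist linked to the proliferating state, fell with the inhibitors. Untreated libraries held 419.8, 311, 351 and 456 normalized counts, ATRA libraries 321, 322 and 328, and Am80 libraries 369, 289 and 378. With inhibitors the level was 209, 166 and 139.8 beside ATRA and 254, 221 and 192 beside Am80. The retinoid libraries overlapped the untreated ones, and every combination library lay below all 10 others. Adding the inhibitors lowered MXD3 1.91-fold beside ATRA (log2 fold change -0.93, SE 0.15, limma adjusted p = 4.67e-05) and 1.55-fold beside Am80 (-0.63, SE 0.15, adjusted p = 0.0024). MXD3 shares 926 exon bases with RAB24 on its own strand and overlaps PRELID1 as well, so its counts are uncertain where the counting could split these genes.

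MXD4, an antagonist found in resting and maturing cells, was lower in every treated group. Untreated libraries held 605, 571, 620.3 and 706 normalized counts, and ATRA libraries 469.5, 455 and 471. Am80 libraries held 573, 399 and 546, ATRA with inhibitors 366, 380.4 and 323, and Am80 with inhibitors 448, 498 and 444. Against untreated cells the log2 fold changes were -0.42 for ATRA (limma adjusted p = 0.00496) and -0.32 for Am80 (adjusted p = 0.0277), and in combination they were -0.81 (ATRA, adjusted p = 1.63e-06) and -0.43 (Am80, adjusted p = 0.00175). Am80 replicate 2 was the lowest of its group, and without it the change with Am80 was -0.16 (adjusted p = 0.245), while without untreated replicate 4 it was -0.26 (adjusted p = 0.0588). Adding the inhibitors lowered MXD4 beside ATRA (-0.39, adjusted p = 0.00795). Beside Am80 the value was -0.11 (adjusted p = 0.46), and it was -0.27 (adjusted p = 0.028) without Am80 replicate 2.

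MXI1 (also known as MXD2), the remaining MXD antagonist, fell together with MYC under the retinoids, and adding the inhibitors brought no further call. Untreated libraries held 531, 561, 609 and 554 normalized counts, ATRA libraries 346, 339 and 329, and Am80 libraries 321, 362 and 329.8. With inhibitors the level was 401, 375 and 364 beside ATRA and 301, 345 and 342 beside Am80. All 12 treated libraries lay below all 4 untreated ones. The fall was 1.66-fold with ATRA (log2 fold change -0.73, SE 0.08, limma adjusted p = 3.07e-07) and 1.67-fold with Am80 (-0.74, SE 0.08, adjusted p = 2.68e-07). Adding the inhibitors gave 0.17 beside ATRA (95% confidence interval -0.01 to 0.34, adjusted p = 0.107) and -0.04 beside Am80 (-0.21 to 0.14, adjusted p = 0.768). Under quantile normalization the value beside ATRA was 0.23 and was called (adjusted p = 0.0363).

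MNT, the broadly expressed antagonist, turned direction between the retinoid and the combination. Untreated libraries held 513, 532, 582 and 469.8 normalized counts, ATRA libraries 711, 724 and 639.6, and Am80 libraries 579, 530.2 and 613. With inhibitors the level was 359, 303 and 356 beside ATRA and 321, 312 and 359 beside Am80. The ATRA libraries were above all untreated ones, those of Am80 overlapped them, and all 6 combination libraries were below. MNT was 1.32-fold higher with ATRA (log2 fold change 0.40, SE 0.09, limma adjusted p = 0.002) and its log2 fold change with Am80 was 0.13 (adjusted p = 0.292). Adding the inhibitors lowered it 2.04-fold beside ATRA (-1.03, adjusted p = 5.94e-08) and 1.73-fold beside Am80 (-0.79, adjusted p = 1.75e-06). MNT shares 1065 exon bases with the antisense gene AC006435.1.

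**Figure D2:**
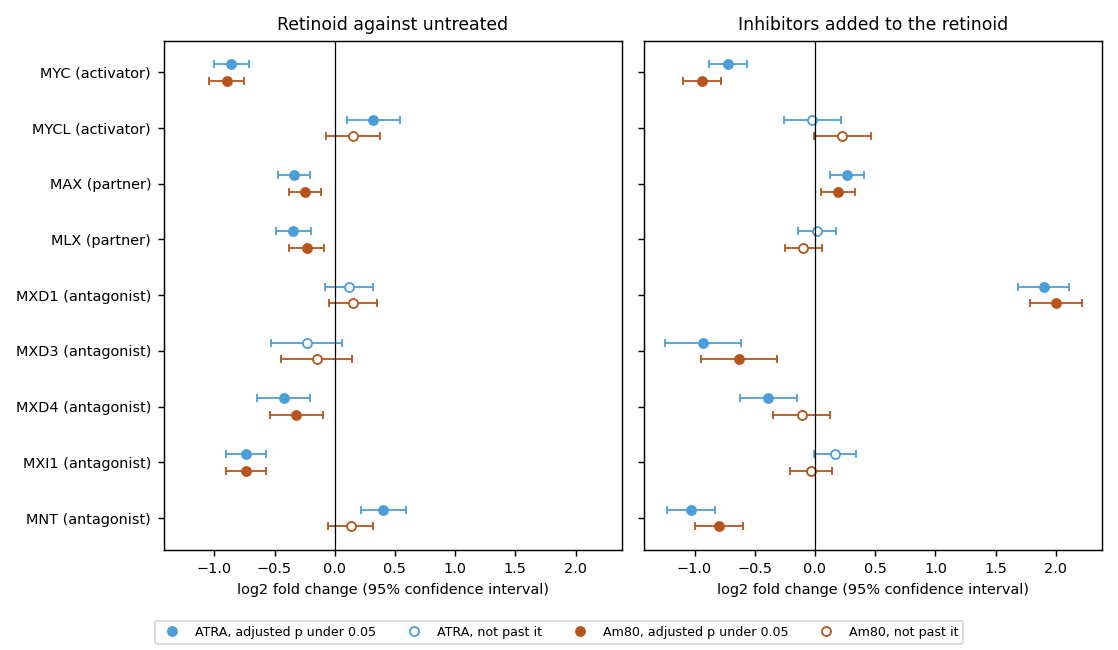
Log2 fold change (horizontal axis) of each tested member with its 95% confidence interval from limma, for ATRA (blue) and Am80 (orange). The left panel compares each retinoid with untreated cells and the right panel compares each combination with its retinoid, and filled points have an adjusted p under 0.05. In the right panel MXD1 is the member farthest above 0 (1.90 and 2.0) while MYC, MXD3 and MNT lie below it beside both retinoids.

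Activators and antagonists therefore did not move as opposing blocks. With ATRA, MYC fell while 1 of 5 antagonists was called higher (MNT) and 2 were called lower (MXD4 and MXI1). With Am80, 2 of 5 were called lower, the same pair, and none higher. Beside the inhibitors 1 of 5 antagonists was higher (MXD1), and those called lower were MXD3, MXD4 and MNT beside ATRA and MXD3 and MNT beside Am80. Against untreated cells each combination left MXD1 higher and the other 4 antagonists lower. The median log2 fold change of the 5 antagonists was -0.23 for ATRA and -0.15 for Am80, and it was -0.63 and -0.66 once the inhibitors were present, while the median of all genes tested was between -0.02 and 0.0 in these comparisons. MYC and an antagonist were called in opposite directions for MNT with ATRA, and for MXD1 on adding the inhibitors beside either retinoid. The same held for MXD1 in both combinations against untreated cells.

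**Figure D3:**
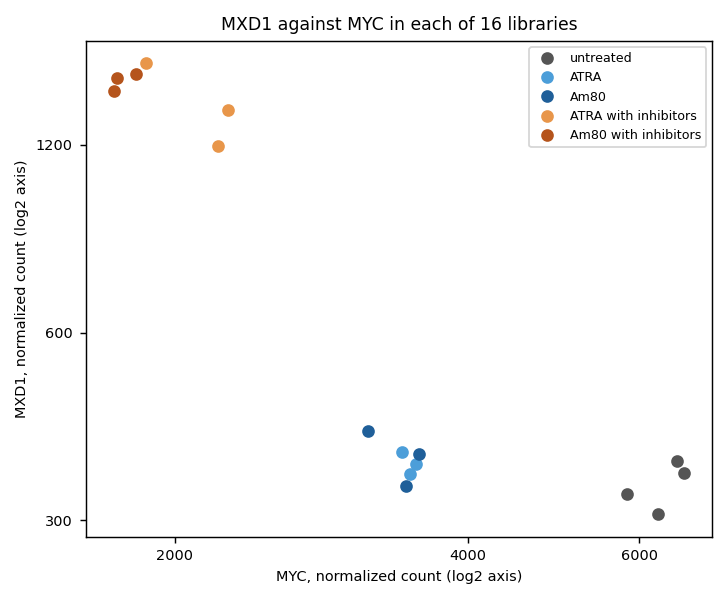
MXD1 (vertical axis) against MYC (horizontal axis) in each of the 16 libraries, as normalized counts on log2 axes, with a color for each treatment group. The retinoid libraries lie left of the untreated ones at about the same height, and the 6 libraries with inhibitors lie further left and higher, at 1196 or more normalized counts of MXD1.

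The distance of MYC to single antagonists narrowed most against MXD1 in the combinations. As log2 of normalized counts, MYC stood 4.21 ± 0.10 above MXD1 in untreated libraries (SD, n = 4), 3.23 ± 0.07 above it with ATRA and 3.16 ± 0.21 with Am80 (n = 3 each). With inhibitors the distance was 0.61 ± 0.36 beside ATRA and 0.22 ± 0.03 beside Am80. These distances are not corrected for gene length, so only their changes between groups can be read. Per kilobase of exon MYC stood at 705 against 219.5 for MXD1 with ATRA and inhibitors. With Am80 and inhibitors it stood at 589 against 239. Against MXI1, which fell with MYC, the distance was 3.49 ± 0.10 in untreated libraries, 3.36 ± 0.06 with ATRA and 3.33 ± 0.18 with Am80. In the combinations it was 2.47 ± 0.16 beside ATRA and 2.42 ± 0.15 beside Am80. Against MXD3 it was 4.05 ± 0.22 in untreated libraries, 3.42 ± 0.01 with ATRA and 3.30 ± 0.13 with Am80, all retinoid libraries lying below the untreated ones. With the inhibitors it was 3.63 ± 0.33 beside ATRA, which overlapped the untreated range, and 2.99 ± 0.17 beside Am80, which did not. Against MXD4 the distance was 3.34 ± 0.13 in untreated libraries, 2.90 ± 0.04 with ATRA and 2.76 ± 0.20 with Am80, and 2.57 ± 0.26 and 1.93 ± 0.11 in the combinations. Against MNT it went from 3.59 ± 0.13 in untreated libraries to 2.33 ± 0.11 with ATRA and 2.56 ± 0.02 with Am80, and was 2.64 ± 0.03 and 2.42 ± 0.13 in the combinations.

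Levels of different members were compared per kilobase of merged exon. MYC had the highest level in each of the 5 groups and MAX came next. In untreated cells the order went on with MLX (287 ± 15.7 normalized counts per kilobase), MXI1 (122 ± 7.10), MXD4 (88.6 ± 8.13), MXD3 (74.6 ± 12.7), MNT (60.1 ± 5.31), MXD1 (53.9 ± 4.64), MYCL and MYCN (SD, n = 4). The neighbours MXD4 and MXD3, MXD3 and MNT, and MNT and MXD1 overlapped in their ranges over libraries. The order depended on the length used. Per kilobase of the longest transcript MXD3 (169 ± 28.8) came before MXI1 (162 ± 9.43) and MXD4 (148 ± 13.6) in untreated cells. In Am80 with inhibitors MXD1 had moved from the eighth place to the third (239 ± 7.98, n = 3), next to MLX (228 ± 13.03), and these 2 ranges overlapped. With ATRA and inhibitors MXD1 came right after MLX (219.5 ± 33.8 against 228.5 ± 17.96), and these ranges overlapped too. Per kilobase of the longest transcript MXD1 followed MLX in both combinations, at 249.5 ± 38.5 against 376 ± 29.6 beside ATRA and 272 ± 9.07 against 376 ± 21.5 beside Am80.

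The summed level of the 5 antagonists moved less than its make-up. The sum was 399.6 ± 16.5 normalized counts per kilobase in untreated libraries, 339.6 ± 6.41 with ATRA and 338 ± 18.2 with Am80. With the inhibitors it was 425 ± 28.7 beside ATRA and 458 ± 10.5 beside Am80. MXD1 made up 13.5% ± 1.24 of it in untreated libraries and 51.5% ± 4.99 and 52.3% ± 0.88 with the inhibitors. The ratio of MYC to the summed antagonists went from 5.28 ± 0.19 (untreated) to 3.42 ± 0.12 (ATRA) and 3.35 ± 0.03 (Am80), and to 1.67 ± 0.27 and 1.29 ± 0.04 with the inhibitors. With the length of the longest transcript in place of merged exons the share of MXD1 was 9.51% in untreated libraries and 42.5% in both combinations. By that length the mean sum with the inhibitors did not exceed the untreated one beside either retinoid. The ratio of MYC to the sum was then 4.15 ± 0.17 (untreated), 2.66 ± 0.09 (ATRA) and 2.60 ± 0.03 (Am80). With the inhibitors that ratio was 1.53 ± 0.23 beside ATRA and 1.17 ± 0.03 beside Am80. These are transcript levels, and no protein was measured in these files.

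**Figure D4:**
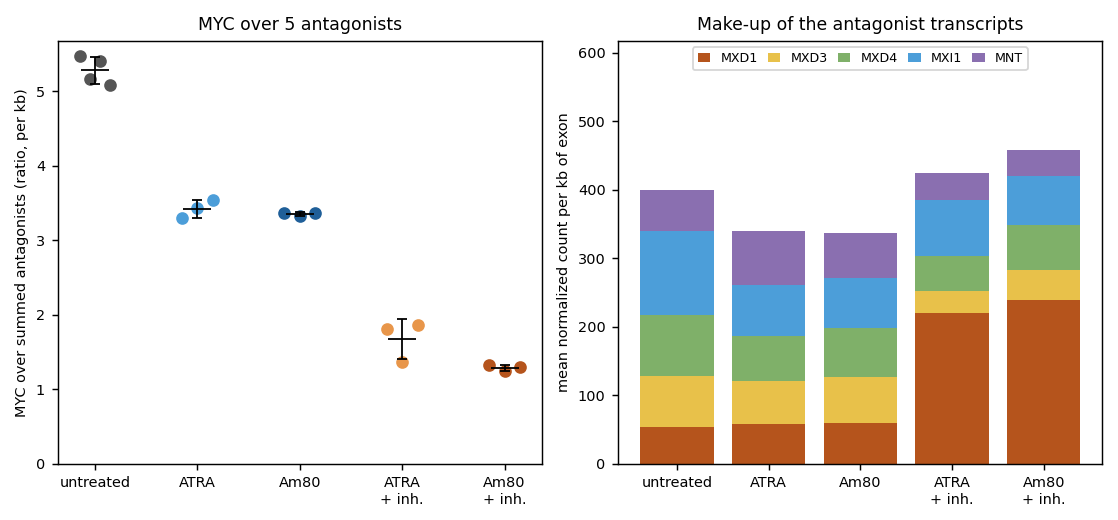
Left, ratio of MYC to the sum of MXD1, MXD3, MXD4, MXI1 and MNT in each library (normalized counts per kilobase of exon), with the mean ± SD of each group (n = 4 untreated, n = 3 otherwise). Right, mean level of each antagonist per kilobase, stacked by group: the total stays between 338 and 458 while the part of MXD1 grows from 13.5% in untreated libraries to 51.5% and 52.3% with the inhibitors.

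Am80 and ATRA, retinoids that differ in structure (Am80 carries an aromatic amide in place of the polyene chain of ATRA), were compared at the same dose and time in 9 members, as 2 pairs of groups, without and with the inhibitors. None of the 9 was called in either comparison, nor in the interaction of retinoid and inhibitors, where the background was 0.239%, 0.0% and 0.0% of all genes. At an unadjusted p under 0.05, limma counted 2042, 2656 and 2211 genes in these 3 comparisons, and DESeq2 on the recovered reads called 291, 98 and 24. A missed threshold does not show that the retinoids act alike. The difference in MYC between Am80 and ATRA was -0.04 on the log2 scale (95% confidence interval -0.19 to 0.12), and with the inhibitors it was -0.26 (-0.41 to -0.10, limma adjusted p = 0.149).

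With the inhibitors the 3 Am80 libraries of MYC all lay below the 3 ATRA libraries, and for MXD4 they all lay above them (0.38, 95% confidence interval 0.14 to 0.61, adjusted p = 0.149). Both differences were called when only the 2 groups compared were fitted (adjusted p = 0.0109 for MYC and 0.00503 for MXD4) and without untreated replicate 4 (0.0441 and 0.0424), and that of MXD4 also without Am80 replicate 2 (0.0381). For MNT the difference between Am80 and ATRA was -0.27 (-0.47 to -0.07, adjusted p = 0.212), with all Am80 libraries below all ATRA libraries. For MXD1 it was 0.03 (-0.18 to 0.25), and 0.14 (-0.08 to 0.35) with the inhibitors.

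The wider network holds MGA, a MAX partner with a T-box, and MLXIP and MLXIPL, the nutrient-responsive partners of MLX. MLXIPL rose in all 4 treated groups, from between 473 and 534 normalized counts in untreated libraries to between 1769 and 2936. Its rise was 5.03-fold with ATRA (log2 fold change 2.33, SE 0.09, limma adjusted p = 1.07e-14) and 3.80-fold with Am80 (1.93, SE 0.09, adjusted p = 2.85e-13). Adding the inhibitors lowered it beside ATRA (-0.35, adjusted p = 0.00431) and gave 0.13 beside Am80 (adjusted p = 0.278). MLXIPL therefore moved opposite to its partner MLX, by a larger factor.

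MLXIP was lower with Am80 (log2 fold change -0.39, limma adjusted p = 0.000963) and its value with ATRA was -0.14 (adjusted p = 0.241). MGA was called lower in both combinations (-0.26, adjusted p = 0.0493, and -0.57, adjusted p = 0.000184). Its libraries of ATRA with inhibitors (2624 to 2766 normalized counts) lay within the untreated range (2450 to 3870). Those of Am80 with inhibitors (2041 to 2388) lay below that range. Of the 3 listed target genes of MLX with MLXIP, ARRDC4 had no read in any library. TXNIP, which restrains glucose uptake, rose with the retinoids (0.18 and 0.25, adjusted p = 0.0233 and 0.00225) and fell on adding the inhibitors (-0.48 and -0.64, adjusted p = 2.75e-06 and 8.94e-08). ARRDC3, an arrestin-like relative of TXNIP, rose in both steps, from 59.2 ± 12.5 normalized counts in untreated libraries (SD, n = 4) to 88.0 ± 8.12 with ATRA and 167 ± 21.7 with ATRA and inhibitors (n = 3 each).

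Genes that MYC is known to raise moved down with it under the retinoids. Of a list of 66 such genes, all tested, ATRA lowered 44 and raised none (median log2 fold change -0.28), where 12.1% of all genes tested were called lower. Am80 lowered 39 and raised none (median -0.24), against 13.4% of all genes. Among the largest falls were SLC19A1, the reduced folate carrier (log2 fold change -0.59 with ATRA and -0.73 with Am80), RRP9, a component of the U3 small nucleolar particle (-0.59 and -0.57), and NOP16, a nucleolar protein (-0.63 and -0.48), each with a limma adjusted p of at most 0.000609. The changes were small: 3 of the 44 and 5 of the 39 reached a 1.5-fold change. As shares of the 66 listed genes these were below the 9.45% (ATRA) and 10.2% (Am80) of all genes called at that limit.

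The list split when the inhibitors were added. Beside ATRA 26 of the 66 fell and 17 rose (median log2 fold change -0.13), where 24.4% of all genes were called lower and 24.9% higher. Beside Am80 14 fell and 10 rose (median -0.05), against 19.5% and 19.9%. The shares of the list beside Am80 were thus close to those of all genes. EXOSC5, an RNA exosome subunit, fell from 1083 ± 73.2 normalized counts with ATRA to 568 ± 24.5 with ATRA and inhibitors (SD, n = 3 each, log2 fold change -0.93, limma adjusted p = 3.72e-05). DCTPP1, a nucleotide pool enzyme, and BYSL, a factor of the small ribosomal subunit, fell beside both retinoids (-0.65 and -0.75 for DCTPP1, -0.65 and -0.68 for BYSL).

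The largest rises of the list were HK2, a hexokinase, and HSPE1 and HSPD1, the mitochondrial chaperonins that are also known as heat shock proteins. HK2 went from 1881 ± 79.8 normalized counts with ATRA to 6880 ± 533 with ATRA and inhibitors (SD, n = 3 each, log2 fold change 1.87, limma adjusted p = 4.25e-14), and its log2 fold change beside Am80 was 2.12. HSPE1 rose by 1.01 and 0.87 and HSPD1 by 0.83 and 0.90 on the log2 scale. These 3 moved opposite to MYC. Against untreated cells the combinations lowered 43 and 41 of the 66 and raised 8 and 6 (median -0.42 and -0.29), where 30.0% and 26.6% of all genes were called lower and 30.2% and 28.0% higher.

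**Figure D5:**
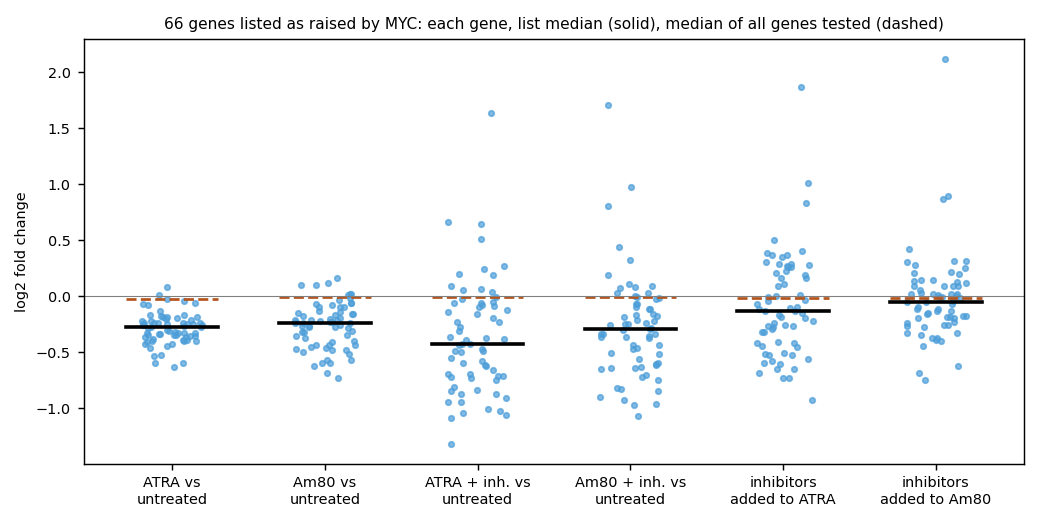
Log2 fold change (vertical axis) of each of the 66 genes listed as raised by MYC in 6 comparisons, with the median of the list (solid line) and of all 14643 genes tested (dashed line). Most of the list lies below 0 with either retinoid (medians -0.28 and -0.24, with 2 and 7 genes above 0), and it spreads to both sides when the inhibitors are added, with HK2 as the point near 2.

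With windows on chromosome 8 left out, RefSeq gave 72 promoter windows for 54 of the list genes. Of these, 29 (40.3%) hold CACGTG, against 7.26% of all windows, to which that filter was not applied. The list was drawn from genes described as MYC targets, so this share is no independent result. Of 8 tested genes that MYC is known to lower, each retinoid raised 2 and lowered 1 (median -0.09 and -0.04), against 24.6% and 28.8% of all genes called. NDRG1, a stress-responsive gene, rose from 3005 ± 167 normalized counts in untreated libraries (SD, n = 4) to 7386 ± 175 with ATRA and 7061 ± 772 with Am80 (n = 3 each). CDKN1A, the cell cycle inhibitor p21, rose by 0.58 and 0.69 on the log2 scale. CDKN2B, the cell cycle inhibitor p15, went the other way (-0.81 and -0.90, limma adjusted p = 0.000845 and 0.000257). CEBPA, the myeloid factor, fell when the inhibitors were added (-0.81 and -0.67, adjusted p = 0.000125 and 0.00104).

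The genes listed for MYC protein turnover include some that promote its degradation and some that protect it, so pooled calls have no single meaning. Their transcripts were called at about the shares of all genes with the retinoids and on adding the inhibitors. Their shares were higher in the combinations against untreated cells. Of 18 such genes, 9 rose and 6 fell there with ATRA and inhibitors, where 30.2% of all genes rose and 30.0% fell. With Am80 and inhibitors 8 rose and 6 fell, against 28.0% and 26.6%. On adding the inhibitors to ATRA 4 of the 18 rose and 6 fell, where 24.9% of all genes rose and 24.4% fell. Beside Am80 4 rose and 4 fell, against 19.9% and 19.5% of all genes. FBXW7, the ubiquitin ligase subunit that marks MYC for degradation, rose from 473 ± 5.37 to 677 ± 55.8 normalized counts beside ATRA (SD, n = 3 each, log2 fold change 0.51, limma adjusted p = 0.000282) and by 0.48 beside Am80. FBXO28, another ligase subunit that acts on MYC, rose by 0.61 and 0.48. SKP2, a ligase subunit that also serves as a MYC coactivator, fell (-0.32 and -0.60), as did the kinase PLK1 (-0.36 and -0.33) and the ligase TRIM32 (-0.33 and -0.29), all with an adjusted p of at most 0.0177.

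With the retinoids alone 2 of the 18 rose and 2 fell with ATRA (12.5% and 12.1% of all genes), and 3 rose and 3 fell with Am80 (15.4% and 13.4%). CIP2A, which shields MYC from the phosphatase PP2A, rose in both comparisons (log2 fold change 0.73 and 0.95, limma adjusted p = 4.39e-07 and 6.76e-09). USP36, a nucleolar deubiquitinase of MYC, fell (-0.26 and -0.50), as did PLK1 (-0.26 and -0.28). Of 16 cofactors of MYC and of the antagonists, 1 rose and 3 fell with ATRA, and none rose and 4 fell with Am80, against 24.6% and 28.8% of all genes called. Beside the inhibitors 2 rose and 3 fell with ATRA, and 5 rose and 3 fell with Am80, against 49.3% and 39.5%. RUVBL1, an ATPase of chromatin complexes that bind MYC and chosen after its values were seen, was called lower in all 4 of these comparisons (log2 fold change -0.32, -0.19, -0.42 and -0.36).

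Over the 16 libraries the genes whose log2 level followed MYC most closely, out of 10120 genes averaging 100 normalized counts or more, were DLX1 (Pearson r = 0.995), ATIC (0.989), DCAF4 (0.988), TFAP4 (0.987) and ALDH1B1 (0.986). TFAP4, itself an E-box factor, went from a mean of 885 normalized counts in untreated libraries to 476 with ATRA and 433 with Am80, and to 186 and 144 in the combinations. The genes that ran most opposite to MYC were GOSR1 (r = -0.991), HAPSTR1 (-0.990), HRH1 (-0.990), KIF13B (-0.989) and UBAP1 (-0.989). MXD1 was followed most closely by RAPGEF2 (0.995), RYBP (0.994), ZNF473 (0.994), the heat shock family gene DNAJA4 (0.993) and CD55 (0.992). These correlations describe the same 16 libraries and their 5 groups, which are not independent points, and carry no test.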

How the data were processed

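The authors sequenced RNA of OCI-AML3 cells. Per the labels the reads passed FastQC, cutadapt, STAR, featureCounts and DESeq2. Versions, genome build, annotation and strand setting were not given in the sources used here, and the labels and the study's methods name different kits. The deposited signal values are read counts divided by DESeq2 size factors for 62700 genes. All values came out as whole reads (tolerance 1e-06), and 24677 genes had no read. Gene positions and lengths came from GENCODE 29 and promoters from RefSeq (GRCh38.p14).

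limma 3.58.1 (R 4.3.3, trend, not robust) was fitted to log2(normalized count + 1) of genes with a mean of at least 10, with 1 coefficient per group, in 9 comparisons, each with its own Benjamini-Hochberg adjustment. The fit was tested on simulated data. The members were set by symbol. The gene lists and named genes (all members, 3 wider network genes, up to 3 rises and 3 falls per target and turnover list called beside both retinoids) were chosen with earlier results of these data known. Lists were described by counts and medians, without a set test, and 1 marker list is not reported here. Every pair of replicates differed by more than sampling noise (a chi-square per degree of freedom of 2.55 to 22.7 over 18 pairs).

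The alternatives were pseudocounts of 0.5 and 5, no filter, a mean of 50, quantile and total-read scaling, only the groups compared, edgeR 4.0.16 and DESeq2 1.42.0 on the recovered reads, a replicate block, a 1.5-fold limit, an adjusted p under 0.01, transcript length, and each library left out. Depth ranged from 11963898 to 33789718 reads, and limits from counts of 0 cover counting error only. Figures used matplotlib 3.10.9.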

Additional observations from a re-analysis of the deposited data

Results flagged for a closer look

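TRIM32, a ubiquitin ligase that acts on MYC, had 1 untreated library far from the other three. Untreated replicate 1 held 457 normalized counts and the others between 537 and 546, so that its gap to the nearest took up 0.894 of the range of the group, above Dixon's 95% limit for 4 libraries. Only the untreated group has 4 libraries, 36 genes were examined there, and chance alone passes this limit in about 1 of 20 groups.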

How the results depend on the processing

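Over 81 values of members (9 members in 9 comparisons) under 28 alternatives each, 2200 of 2268 kept their side of the threshold, 53 lost the call, 15 gained one and no called value changed sign, while some uncalled values near 0 did. Of the 39 calls 22 held under every alternative, among them all 6 of MYC and all 4 of MXD1. With a 1.5-fold limit, members called fell to 2 with ATRA, 2 with Am80 and 5 with either combination against untreated cells. The MYC-raised genes called fell to 3, 5, 28 and 21 of 66, and to 11 and 6 on adding the inhibitors to ATRA and Am80. Of all genes 9.45%, 10.2%, 29.1% and 26.0% were called at that limit against untreated cells, and 19.5% and 15.7% on adding the inhibitors. At an adjusted p under 0.01 there were 3 members with Am80 and 28 MYC-raised genes with ATRA. Fitted with only the groups compared, there were 2 members and 23 MYC-raised genes with Am80, and 2 members (MYC and MXD4) between the combinations, where that fit called 1975 of all genes against 0. For Am80 against ATRA with all genes it called 0 against 35, DESeq2 called 291, edgeR 88 and the replicate block 402.

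Leaving out 1 library at a time, members called ranged from 3 to 5 with Am80 (3 without Am80 replicate 2), and from 0 to 2 between the combinations (2 without untreated replicate 4, 1 without Am80 replicate 2). MYC-raised genes called on adding the inhibitors to Am80 ranged from 15 to 31 (15 without Am80 with inhibitors replicate 3). Scaling to total reads moved the median of all genes by -0.15 and -0.19 in the combinations against untreated cells, where the higher calls went from 50.1% to 35.0% and from 51.3% to 30.4% of calls, and from 50.5% to 29.8% and 29.3% on adding the inhibitors. With Am80 the higher calls went from 53.5% to 39.0%. MAX was then called lower in both combinations (-0.22 and -0.24), and under quantile normalization too (-0.21, adjusted p = 0.00759, and -0.21, adjusted p = 0.00678). The cause of these differences was not tested.

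Same-numbered libraries did not deviate together: over 30 pairs the correlations ran from -0.11 to 0.14, and 2 were over 0.1. Under the replicate block, which leaves untreated replicate 4 without weight, 2 members were called between the combinations (MYC, adjusted p = 0.0312, and MXD4, adjusted p = 0.0454). Of all 14643 genes the block called 690 in that comparison, against 0 in the main fit. MXD4 lost its call with Am80 (-0.26, adjusted p = 0.0647), and the block changed no other call of a member. Depth limits MYCN, without reads, and MYCL, with 91 to 239 reads per library.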

Other observations

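MYC belongs to the immediate early genes, which respond within hours of a stimulus, and the others of that class did not follow it as a group. Of 13 tested genes, ATRA raised 2 and lowered 4, and Am80 raised 3 and lowered 2 (24.6% and 28.8% of all genes were called). On adding the inhibitors 4 rose and 1 fell beside ATRA, and 5 rose and 1 fell beside Am80, against 49.3% and 39.5% of all genes called. The genes named here were chosen after their values were seen. JUN fell with the retinoids (log2 fold change -1.23 and -1.08, limma adjusted p = 4.52e-07 and 2.77e-06) and rose on adding the inhibitors (1.36 and 1.85). FOS fell with the retinoids (-0.83 and -0.75), and with the inhibitors added its values were -0.10 and -0.13, neither of them called. EGR1 rose only on adding the inhibitors among these 4 comparisons (1.55 and 1.80), and NR4A2 fell there (-1.22 and -1.14). IER3 had the largest rise of the list with the retinoids (2.42 and 2.75, adjusted p = 0.000857 and 0.000203).

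KAT2A, also picked by its values, which encodes GCN5, the target of MB3, and which acts as a MYC cofactor, was called lower with Am80 (log2 fold change -0.37, limma adjusted p = 0.000983) and on adding the inhibitors to ATRA (-0.29, adjusted p = 0.00665). The others were -0.18 with ATRA (adjusted p = 0.0894) and -0.10 on adding the inhibitors to Am80 (adjusted p = 0.339). The heat shock list, whose genes are also named after their values were seen, was led by HSPH1 (2.07 and 2.18 on adding the inhibitors to ATRA and Am80), DNAJB1 (1.88 and 2.35) and BAG3 (1.98 and 2.23).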
